A study of Mus musculus with 2 samples.

Results

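Leukemia inhibitory factor (LIF) keeps mouse embryonic stem cells in an undifferentiated state in culture. It binds a receptor made of LIFR and gp130, Janus kinases such as JAK2 phosphorylate the receptor and the transcription factor STAT3, and STAT3 then enters the nucleus and switches on its target genes. Among the targets, SOCS3 feeds back to silence the receptor and its kinases, and PIM1 is a serine/threonine kinase that favours survival. The MYC family drives growth, and the list of STAT3 targets used below holds Myc but not Mycn. The 5 genes described here, Stat3, Jak2, Socs3, Pim1 and Mycn, were chosen by name from this axis, Mycn as the family member prominent in stem cells. All 5 were measured, each by 1 probe, among the 11484 genes that carried a symbol on the array.

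The expression data are from a 1-colour oligonucleotide microarray and cover 2 samples of mouse cells, both of embryonic stage and of the strain given as C57/ICR. Parental cells were at passage 1 in FBS medium. The other sample, stem cells generated by small molecule and here called the stem cells, was at passage 5 in ES medium, so that treatment, passage and medium differed together and cannot be told apart. The series design text names 3 replicates for each sample and calls 1 of the samples PEG cells, read here as the stem cells. A single column of values per sample was analysed, so there was no replicate, no test between the samples and no p-value. Neither the cell type of the parental culture nor the small molecule is named in the labels.

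Values are probe intensities on a linear scale, as deposited. The 25th percentile of each column, 93.8 (parental) and 93.4 (stem cells), served as the floor. A gene under it in both samples was called dim, and for a gene under it in a single sample the fold was computed against that sample's floor and is a lower bound. Of the 9766 genes that were not dim, 20.5% were higher and 20.8% lower by 2-fold or more in the stem cells, 41.3% in all. Markers of pluripotent cells, fibroblasts and macrophages, chosen here and not taken from the labels, were also read. Of 7 measured pluripotency markers out of 10 listed, 6 were higher in the stem cells, and their intensities summed to 683 in parental and 90847 in stem cells. Pou5f1, Nanog, Zfp42, Esrrb and Fgf4 lay under the floor in parental cells, and Nanog reached only 94.7 in the stem cells. Only 2 of 12 fibroblast markers were measured, Thy1 and S100a4, and their sum was 72521 and 319. Of 4 measured macrophage markers out of 9, 3 were lower, with sums of 5985 and 671, and C1qa under the floor in the stem cells. The part of a changed mix of cells in the results was not tested, and fewer cells of a type and less RNA per cell cannot be told apart in bulk samples.

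The 5 genes fell into 3 patterns. The upstream genes Stat3 and Jak2 were well above the floor in parental cells and under the floor in the stem cells. Socs3 had nearly the same intensity in both. Pim1 and Mycn were more than 10-fold brighter in the stem cells. Thus 2 of 5 members were higher and 2 lower, in an array where 20.5% and 20.8% of genes were. With 5 genes these counts describe the members and no more.

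**Figure D1:**
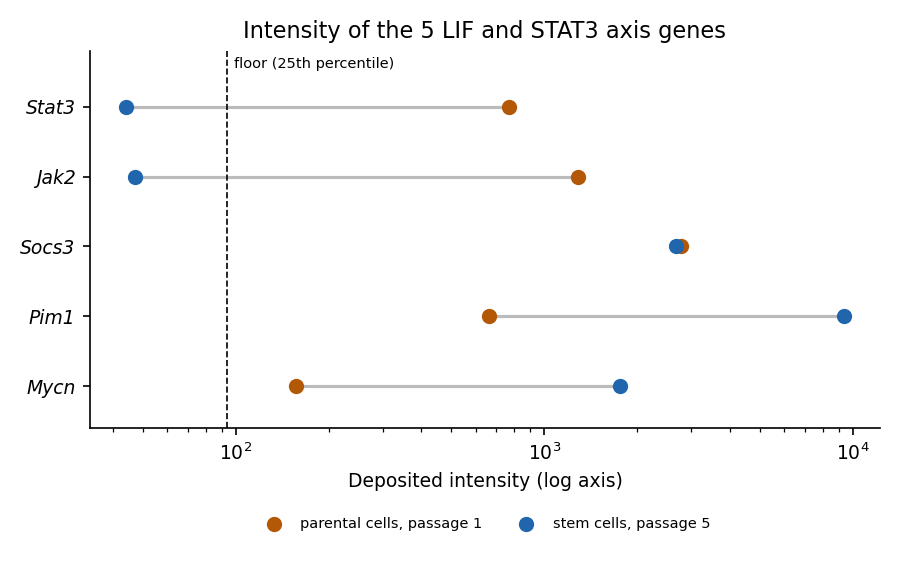
Deposited intensity (log axis) of the 5 genes in the parental cells (orange) and in the stem cells (blue), 1 value per sample, with the parental floor of 93.8 as a dashed line. Stat3 and Jak2 cross the floor to 44.1 and 47.0, the Socs3 points nearly coincide, and Pim1 and Mycn lie to the right in the stem cells.

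Stat3 encodes the transcription factor that carries the LIF signal to the nucleus. The parental cells had an intensity of 770.1 and the stem cells one of 44.1. The parental value was 8.21 times the floor and the other was 0.472 of it, so the signal in the stem cells was among the dimmest 25% of probes. The fold is a lower bound, at least 8.24-fold lower, a log2 difference of -3.04 at the bound. With the value under the floor taken as deposited, the log2 difference was -4.13. Of the 9766 genes, 372 (3.81%) had a difference or a bound at least as low as the bound of -3.04. Because Stat3 has a bound only, its rank is not known. The promoter window of Stat3, from 250 bases before to 50 after the annotated start in RefSeq (assembly GRCm38.p6), lies at chr11:100939491-100939790 on the minus strand. It is shown because Stat3 is the factor whose motif was looked for in all the windows below. Searched on both strands were the STAT core TTCNNNGAA (N is any base), the E-box CACGTG and the E2F motif TTTGGCGC, which do not overlap in any window shown. The Stat3 window held none of the 3, had 15 CpG dinucleotides and was 60.7% G and C. The sequence, 5′ to 3′ on the gene's strand, reads as follows.
Stat3: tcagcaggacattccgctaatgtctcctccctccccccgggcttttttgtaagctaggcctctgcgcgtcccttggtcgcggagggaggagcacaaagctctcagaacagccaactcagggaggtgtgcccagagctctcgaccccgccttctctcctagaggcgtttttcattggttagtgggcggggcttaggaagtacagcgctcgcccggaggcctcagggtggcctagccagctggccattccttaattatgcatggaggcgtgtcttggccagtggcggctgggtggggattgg

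Jak2 encodes a tyrosine kinase that is bound to gp130 and other cytokine receptors and phosphorylates STAT proteins. The probe read 1286 in parental cells and 47.0 in stem cells, where it was under the floor as Stat3 was. The difference was at least 13.8-fold, a log2 difference of -3.78 at the bound. A difference or a bound at least as low was found for 210 of the 9766 genes (2.15%), which does not rank Jak2 itself. The bounds of Jak2 and Stat3 differed by 0.74 on the log2 scale. Because both are bounds, their order in the size of the difference is not known. The promoter window of Jak2, at chr19:29251553-29251852 on the plus strand, had 44 CpG dinucleotides, and none of the 3 motifs was in it.

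Socs3 encodes an inhibitor that binds gp130 and JAK kinases and is among the best known direct targets of STAT3. Parental cells read 2779 and stem cells 2670.2 in intensity, far above the floor in both (29.6 and 28.6 times). The difference was 1.04-fold, a log2 difference of -0.06. It was thus the only member that differed by less than 2-fold, and it lay close to the median log2 difference of all 9766 genes, 0.10. Of the member promoter windows, only that of Socs3 held the palindrome TTCNNNGAA, the core to which STAT proteins bind. A link between these letters and its expression was not tested. The window lies at chr11:117969317-117969616 on the minus strand, with 31 CpG dinucleotides. The match, TTCTTAGAA, began 154 bases before the annotated start and is in capitals.
Socs3: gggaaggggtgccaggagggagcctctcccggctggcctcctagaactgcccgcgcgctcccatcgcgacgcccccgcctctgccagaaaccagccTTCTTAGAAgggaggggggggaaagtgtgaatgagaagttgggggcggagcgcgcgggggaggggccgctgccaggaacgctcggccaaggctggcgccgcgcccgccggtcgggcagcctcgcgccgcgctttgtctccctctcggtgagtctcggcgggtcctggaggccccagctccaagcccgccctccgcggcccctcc

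Of 32851 promoter windows of the same length in the RefSeq table, 8.30% held TTCNNNGAA, which reads the same on both strands. Of the 15 listed STAT3 target genes with a window, Socs3 alone held it. A match of these letters is a description of the window and not a measured binding site, and their absence from 300 bases says nothing of sites elsewhere.

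Pim1 encodes the kinase first found as a site of proviral insertion in lymphomas, and its transcript is induced by cytokines through STAT factors. Intensity went from 659.9 in parental cells to 9358 in stem cells. The gene was 14.2-fold higher, a log2 difference of 3.83, and both values were above the floor. Only 116 of the 9766 genes (1.19%) were higher by at least as much. RefSeq gives Pim1 a pair of annotated starts, whose windows differ in base composition and are shown for that contrast. The window at chr17:29490535-29490834 on the plus strand held 42 CpG dinucleotides and was 81.3% G and C. The window at chr17:29492835-29493134 held 5 and was 49.0% G and C. The second held an E-box, CACGTG, 58 bases before its start, in capitals, the core motif of MYC and its partner MAX, which 7.15% of all windows had. The array has 1 probe for Pim1, and which start gave rise to the signal was not tested.
Pim1, upstream start: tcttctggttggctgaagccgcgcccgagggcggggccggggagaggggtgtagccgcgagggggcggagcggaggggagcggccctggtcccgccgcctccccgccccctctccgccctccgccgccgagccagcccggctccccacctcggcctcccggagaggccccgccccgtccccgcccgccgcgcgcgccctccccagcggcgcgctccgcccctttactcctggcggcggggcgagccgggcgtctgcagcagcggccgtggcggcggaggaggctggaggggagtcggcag
Pim1, downstream start: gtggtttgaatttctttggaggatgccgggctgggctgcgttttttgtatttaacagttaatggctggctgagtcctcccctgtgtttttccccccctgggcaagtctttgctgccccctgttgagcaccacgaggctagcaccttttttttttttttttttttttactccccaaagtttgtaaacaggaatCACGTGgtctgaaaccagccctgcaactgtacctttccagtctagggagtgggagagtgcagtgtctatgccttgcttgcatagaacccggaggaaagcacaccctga

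Mycn encodes N-MYC, a member of the MYC family expressed in embryonic tissues and in mouse embryonic stem cells. In parental cells its intensity was 157, which is 1.67 times the floor, and in stem cells it was 1758. Mycn was 11.2-fold higher, a log2 difference of 3.49, and 146 of the 9766 genes (1.49%) were higher by at least as much. The log2 differences of Pim1 and Mycn were 0.34 apart. The Mycn window, at chr12:12941787-12942086 on the minus strand, held the E2F motif TTTGGCGC at 183 and again at 168 bases before the start, both in capitals. Of all windows 0.514% had this motif at least once and 2 had it 2 times or more. The 3 motifs were chosen after the windows had been looked at, so such counts do not measure how unusual a window is.
Mycn: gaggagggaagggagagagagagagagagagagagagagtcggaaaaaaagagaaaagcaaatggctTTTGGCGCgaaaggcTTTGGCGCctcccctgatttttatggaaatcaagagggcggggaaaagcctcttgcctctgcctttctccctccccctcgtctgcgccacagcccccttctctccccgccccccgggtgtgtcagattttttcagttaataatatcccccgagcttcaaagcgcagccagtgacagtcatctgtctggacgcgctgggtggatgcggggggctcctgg

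**Figure D2:**
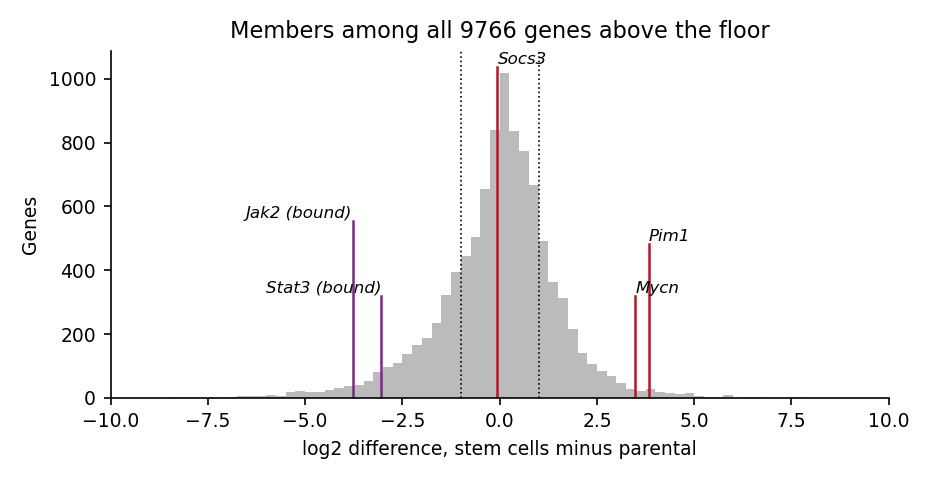
Histogram of the log2 difference (stem cells minus parental, values under the floor set to it) for the 9766 genes that were not dim, with the 5 members as vertical lines and 2-fold as dotted lines. Stat3 (-3.04) and Jak2 (-3.78), both bounds in purple, lie in the left tail, Pim1 (3.83) and Mycn (3.49) in the right tail, and Socs3 (-0.06) near the centre.

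Each member was read by a single probe, so the error of a probe bears on every value above. It was measured in 612 genes that had exactly 2 probes left once dim probes were dropped. The SD of the log2 difference of 1 probe around its gene was 1.00, a factor of 2.01. It covers how far probes disagree within these samples, whereas the spread between cultures could not be measured. In units of that SD, the log2 differences of Pim1 and Mycn were 3.81 and 3.47 and the bounds of Stat3 and Jak2 were -3.03 and -3.77. The gap between Pim1 and Mycn and that between the bounds of Stat3 and Jak2 were each smaller than the SD. Probes with the patterns of the members were then followed to their partner, in all 805 genes with 2 probes. Either probe of a gene could be picked, so a gene with both probes in a pattern was counted 2 times. The counts below are thus of probes and not of separate genes. Of 10 probes that were lower by 8-fold or more and under the floor in the stem cells, as Stat3 and Jak2 were, 9 had a partner lower by 2-fold or more and 1 had a dim partner. The median of the partners that were not dim was -1.21, a smaller difference than that of the probes picked for their size. Of 15 probes higher by 8-fold or more and above the floor in both samples, as Pim1 and Mycn were, 12 had a partner higher by 2-fold or more, 1 a partner lower by as much, and 1 a dim partner. Of 197 probes within 1.2-fold, as Socs3 was, 139 had a partner within 2-fold, 15 a higher and 24 a lower partner, and 19 a dim one.

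**Figure D3:**
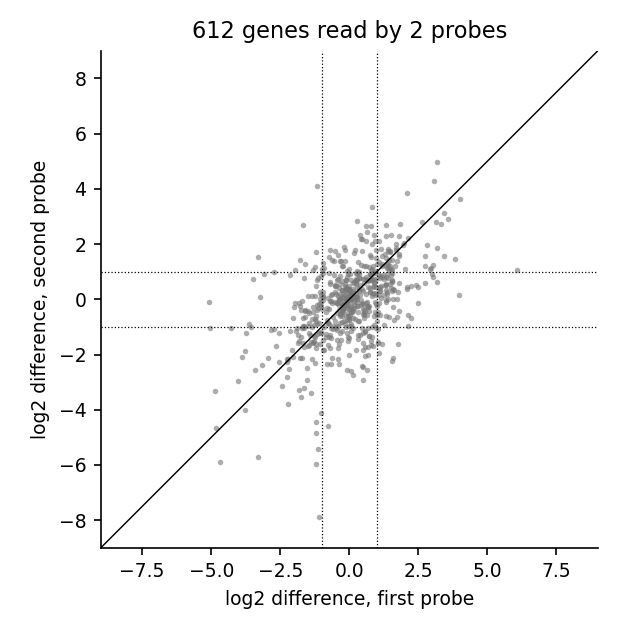
Log2 difference (stem cells minus parental) of the first probe (x axis) against the second probe (y axis) of the same gene. Shown are 612 genes with exactly 2 probes left once dim probes were dropped. The diagonal marks equal values and dotted lines mark 2-fold; the scatter around the diagonal corresponds to an SD of 1.00 for 1 probe.

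The rest of the pathway was read through 10 lists, ordered by role, with 95 genes in all, of which 58 were measured and 56 were not dim. Without the 5 members, 11 of 51 genes were higher (21.6%) and 11 lower (21.6%), near the 20.5% and 20.8% of all genes, and their median log2 difference was -0.04 against 0.10 for all genes. The shares past 2-fold in the pathway were thus close to those of the array.

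Ligands and receptors upstream of the members were little covered and stayed within 2-fold where measured. Of 10 ligand genes of the gp130 family 6 were measured, and none was 2-fold higher or lower, beside 41.3% of all genes. With 6 genes this count does not describe the ligands. Osm, which encodes oncostatin M, was at 382 and 705 in the parental and the stem cells, and Ctf1, which encodes cardiotrophin 1, was at 855 and 1135. Il11 was at 469 and 349. Of 7 receptor genes only Il6ra, the interleukin 6 receptor chain, was measured, at 166 and 120.0. Lif, Lifr and Il6st, the gene of gp130, were not analysed here.

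Jak2 was the Janus kinase gene with the lowest log2 difference among the 4 measured. Jak1, the other kinase widely used by gp130 receptors, was also lower, 3.02-fold (15150 and 5012), and remained far above the floor. Jak3, the kinase of the common gamma chain of lymphoid receptors, read 60.4 in parental cells, under the floor, and 287 in stem cells, at least 3.06-fold higher. Tyk2 was at 101 and 172.

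Of 4 measured STAT genes out of 7, Stat3 and 2 others were lower and 1 was higher, beside 20.8% and 20.5% of all genes, and 4 genes do not describe the family. Stat5b, which serves growth hormone and other cytokines, fell under the floor from 393 to 73.4, at least 4.21-fold lower. Stat6, the factor of interleukin 4, was 2.15-fold lower (353 and 164). Stat4, the factor of interleukin 12, was 3.28-fold higher (298 and 978). The log2 differences of Stat6, Jak1 and Stat4 and the bound of Jak3 were each under 2 SD of the probe error. So were those of Socs7, Socs1, Cish, Ptpn6, Ptpn11, Mcl1, Ier3 and Mlxip below, each read by 1 probe.

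Of 8 SOCS family genes 7 were measured. Among them 1 was higher (14.3%) and 2 were lower (28.6%), beside 20.5% and 20.8% of all genes, and 7 genes do not describe the family. Socs7 was 3.01-fold higher (508 and 1532), Socs1 was 2.50-fold lower (477 and 191) and Cish, a target and inhibitor of STAT5, 2.77-fold lower (1025 and 371). With Socs3, Socs2 (1455 and 1802) and Socs4 (629 and 665) were within 2-fold. Socs6 (148 and 76.7) was under the floor in the stem cells and counted as within 2-fold. Its 1.59-fold is a lower bound. Socs3, with a log2 difference of -0.06, was the median of the 7. Of 9 other measured inhibitors of JAK and STAT proteins, 2 were higher (22.2%), 1 was lower (11.1%) and 6 were within 2-fold. The shares of all genes were 20.5% and 20.8%, and 9 genes do not describe the group. Ptpn6, which encodes the phosphatase SHP-1, was 3.33-fold higher (199 and 662). Pias2, a SUMO ligase gene, was 2.41-fold higher as a mean of 3 probes, which ranged from 1.14-fold to 4.24-fold. Ptpn11, which encodes SHP-2, the phosphatase that links gp130 to the RAS pathway, was 2.12-fold lower (8518 and 4012).

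Among adaptors and parallel branches of the LIF receptor, 7 of 17 genes were measured. Beyond 2-fold lay 2 of the 7, in opposite directions, beside 41.3% of all genes, and 7 genes do not describe the branches. Gab1, a docking protein that binds SHP-2, was 10.2-fold higher (281 and 2868). Akt1, a kinase of the PI3K branch, was 10.2-fold lower (5659 and 553). The adaptor gene Grb2 was at 2167 and 2563. Shc1 was read by 2 probes that disagreed, the first 2.34-fold lower (1337 and 572) and the second at 1684 and 1849.

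Listed targets of STAT3 went both ways. Without Socs3 and Pim1, 11 of 18 were measured, and 5 were higher and 3 lower in the stem cells, where 20.5% and 20.8% of all genes were. Their median log2 difference was 0.99 against 0.10 for all genes, and with 11 genes no test was made. This list was chosen with earlier results of these data known, so its direction is not independent evidence. The higher genes included transcription factors of naive pluripotency, Tfcp2l1 at least 165-fold (43.4 and 15457), Gbx2 17.8-fold (138 and 2457) and Klf5 9.45-fold (955 and 9021). Mcl1, a survival protein of the BCL2 family, was 2.38-fold higher (17280 and 41124). On the other side stood Ccnd1, which encodes cyclin D1 and was 4.68-fold lower (2594 and 555), and the stress-induced gene Ier3, 2.49-fold lower (825 and 332). The third lower gene was Junb, an AP-1 subunit and immediate early gene, whose 2 probes disagreed, the first 9.16-fold lower (2261 and 247) and the second dim in both samples. Bcl3, an IkappaB family gene, was at 533 and 1060, just short of 2-fold.

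Within the PIM kinase family, Pim3 was higher together with Pim1, 4.48-fold (185 and 828). Pim2 read 22.4 in parental cells, under the floor, and 94.2 in stem cells, just above it, so that its fold had a lower bound of 1.00 only. In the MYC, MAX and MXD list, 7 genes of 13 were measured and 5 were not dim. Of these 5, Mycn alone was higher (20%) and 1 was lower (20%), beside 20.5% and 20.8% of all genes. Mlxip, which encodes the glucose-responsive factor MondoA, was 2.16-fold lower (648 and 300.1). The repressor gene Mnt, at 104 and 98.2, stayed close to the floor, Mxi1 and Mycs were dim, and Myc, Mycl and Max were not analysed here.

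**Figure D4:**
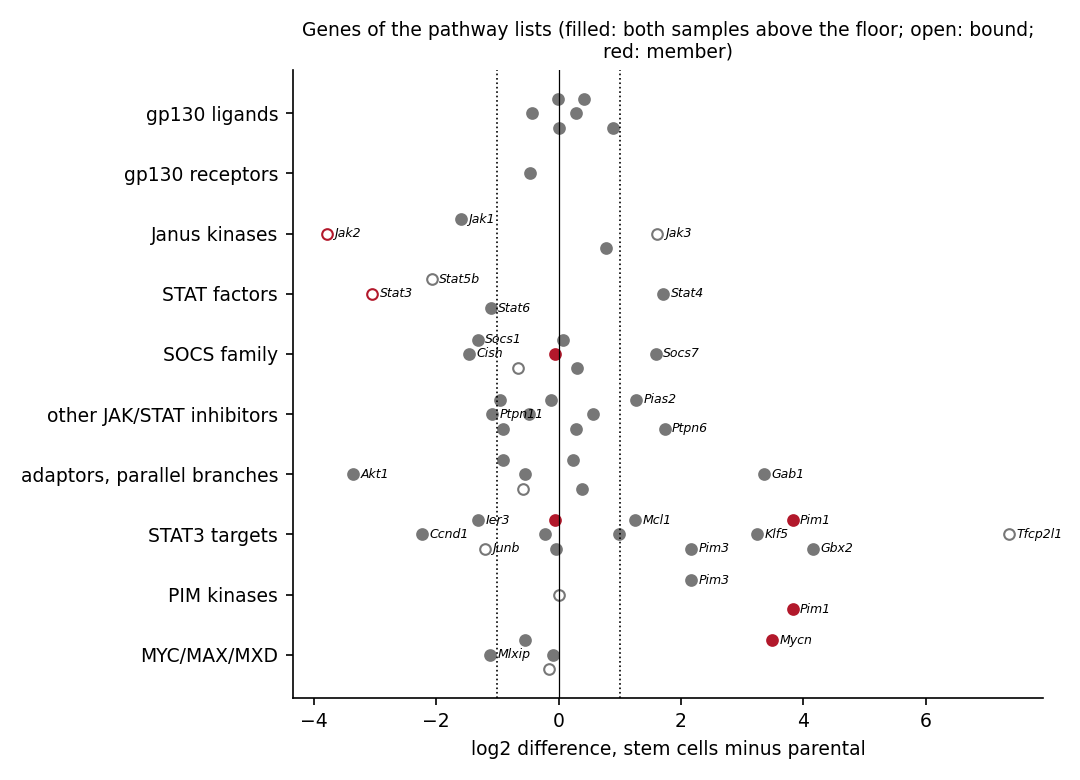
Log2 difference (stem cells minus parental) of the genes of 10 pathway lists, 1 row per list, dim genes left out; filled points lie above the floor in both samples, open points are bounds, red points are members, and dotted lines mark 2-fold. Janus kinase and STAT genes reach to both sides with Jak2 and Stat3 furthest left in their rows, and the STAT3 targets reach furthest right.

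The genes with the log2 difference nearest to that of Pim1 and of Mycn were listed from the 8210 candidates whose values both exceeded the floor. Likeness was thus over 2 samples only. Nearest to Pim1 (3.83) were Tuba4a (3.82), Clstn3 (3.81) and Tex15 (3.85), and nearest to Mycn (3.49) were Caprin2 (3.49), Ppm1j (3.48) and Cpn1 (3.50). For Stat3 and Jak2 no nearest genes are given. The 778 other genes that were above the floor in parental and under it in stem cells have bounds set by the parental value alone, so their differences cannot be matched.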

How the data were processed

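Total RNA was amplified and labelled with Cy5 for a Phalanx OneArray v2 of the mouse genome, per the labels. The deposited values are probe intensities on a linear scale. For scanner, background correction, normalisation and filters the labels name no setting, and these steps are therefore not described. Both columns had nearly equal medians (304 and 305), as a normalisation between arrays would leave them, and all values were multiples of 1/18 (tolerance 0.001), which leaves unknown whether a column averages several arrays or spots. Replicates being absent, the number of arrays limits the precision.

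Of 13989 probes, 12380 had 1 symbol in the platform annotation, 0 had several and 1609 had none, and 12364 were matched by Entrez identifier to RefSeq (GRCm38.p6). Log2 intensities were averaged over a gene's probes (numpy 2.4.6, pandas 2.3.3), and genes were counted at 2-fold or more after values under the 25th percentile were set to it. No model was fitted. The computation was tested on simulated data.

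The naming rule took the 5 members, allowed any measured gene of the lists, and added for each member beyond 2-fold the 3 genes nearest in log2 difference. List genes within 2-fold are named in part, chosen after their values were seen, and the nearest genes are given for Pim1 and Mycn. The members and lists were chosen with earlier results of these data known, and the 3 motifs after the windows had been looked at. The alternatives tried included median centring, quantile normalisation, lowess centring (span 0.3), the brightest probe, an offset of 50, floors at the 10th percentile and the median, and a 4-fold rule. Keeping values under the floor as deposited and centring each class of probe identifiers were added after seeing the data.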

Additional observations from a re-analysis of the deposited data

How the results depend on the processing

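Under the 9 alternatives that recompute a log2 difference, each of the 5 members kept its direction and its side of the 2-fold rule. Pim1 ranged from 3.65 to 3.83, Mycn from 2.53 to 3.49 and Socs3 from -0.23 to -0.03. The 2.53 of Mycn came with the floor at the median. Its parental intensity of 157 lay under that floor, so 2.53 is a lower bound. The bounds of Stat3 and Jak2 follow the floor by construction. With the floor at the median they were -1.34 and -2.08, and with values under the floor as deposited Stat3 was at -4.13 and Jak2 at -4.77. Moves were judged against the probe SD of 1.00, in the absence of replicates. At a 4-fold rule 2 members were higher and 2 lower. The pathway lists, here with the members included, had 7 higher and 5 lower of 56 genes in place of 13 and 13. Among all 9766 genes, 617 were higher and 894 lower in place of 2000 and 2034. Lowess centring moved the median log2 difference of all genes from 0.10 to -0.01 and gave 1688 higher and 2269 lower genes. No paired analysis was possible because each group had a single column and no test was made. Leaving out a replicate was not possible for the same reason. A value under the floor limits what can be said of Stat3 and Jak2 in the stem cells to a bound.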

Other observations

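Promoter windows holding TTCNNNGAA were set against the array as a whole. Of 635 genes above the floor with such a window, 22.0% were higher and 21.3% lower by 2-fold or more in the stem cells. Of 7216 genes with a window but without these letters, 20.5% were higher and 20.6% lower. Both pairs of shares lay near those of all genes, and no test was made.

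Members came from different classes of probe identifier, Stat3, Pim1 and Mycn from a class of 8326 probes with a median log2 difference of 0.16, and Jak2 and Socs3 from a class of 4862 probes with a median of -0.02. The gap between the class medians is small beside the differences of Stat3, Jak2, Pim1 and Mycn.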
